A study of Drosophila melanogaster with 6 samples.

Results

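Cytochrome P450 enzymes were compared in heads of adult Drosophila melanogaster between flies without the histone demethylase gene Kdm3 and a control stock. The members were all genes of the deposited count table whose FlyBase symbol is Cyp followed by a number, a letter and a second number. That rule gave 84 of the 17753 listed genes: 39 of the CYP3 clan, 32 of the CYP4 clan, 4 of the CYP2 clan and 9 of the mitochondrial clan. A clan is a group of P450 families with a common ancestor. Cyp6a15Psi and Cyp6t2Psi are pseudogenes, and the remaining members are annotated as protein-coding. P450 genes that carry a mutant name, among them the ecdysone synthesis genes spo, phtm, dib, sad and shd, fall outside the rule and are described with their pathway.

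P450 enzymes are haem proteins that insert an oxygen atom into a substrate. Those of the CYP2, CYP3 and CYP4 clans mostly sit in the endoplasmic reticulum and take electrons from the reductase Cpr, and those of the mitochondrial clan take them from ferredoxin. In insects, many CYP3 clan enzymes, and some of the mitochondrial and CYP4 clans, act on plant toxins and insecticides, mostly in fat body, gut and Malpighian tubule. Others make or clear hormones: ecdysone is built by a chain of P450 enzymes and removed by Cyp18a1, and long-chain cuticular hydrocarbons, which waterproof the fly and serve as pheromones, are finished by Cyp4g1.

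The tested genotype was Kdm3 KO, a knockout of Kdm3, with 3 libraries, and it was set against wBerlin, a control stock, with 3 libraries. Each library was made from 50 heads of flies taken 2 to 7 days after eclosion and reared at 25 °C and 70% relative humidity, and the labels call the replicates biological. The labels do not say how the Kdm3 allele was made, whether the stocks share a genetic background or which sex was used. Total counts were 19850981 to 25571878 in Kdm3 KO libraries and 21935654 to 28237382 in wBerlin libraries. Levels are given in CPM, the count of a gene scaled to library size, after normalization by TMM, which corrects for differences in library composition. A gene was called when edgeR's quasi-likelihood test, two-sided, gave an adjusted p under 0.05 after Benjamini-Hochberg adjustment over 14069 genes, and every adjusted p below is from that test unless another is named. Log2 fold changes put Kdm3 KO over wBerlin, so that a positive value means higher in Kdm3 KO, and positions are on the BDGP6.54 assembly.

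Kdm3 itself had 3.86, 0.642 and 0.710 CPM in Kdm3 KO libraries, against 32.5, 30.1 and 28.7 CPM in wBerlin libraries (log2 fold change -4.09, SE 0.49, adjusted p = 0.00344). Kdm3 KO replicate 1 kept several times the level of the other knockout libraries. Some libraries stood apart within their genotype. Kdm3 KO replicate 2 held some transcripts of gut and flight muscle that were near 0 elsewhere: alphaTry, a trypsin of the midgut, was at 0.318, 18.8 and 0.133 CPM in Kdm3 KO and at 0.180, 0.401 and 0.229 CPM in wBerlin, and TpnC4, a flight muscle troponin, was at 0.795, 87.8 and 1.02 CPM in Kdm3 KO and at 1.47, 2.26 and 2.15 CPM in wBerlin. Antennal transcripts were low in all Kdm3 KO libraries and, to a lesser degree, in wBerlin replicate 1: 11 antennal markers summed to 25.7 to 44.0 CPM in Kdm3 KO and to 57.0, 307.6 and 416.5 CPM in wBerlin. The part of either pattern in the results below was not tested. In whole heads, fewer cells of a type and less RNA per cell cannot be told apart.

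P450 transcripts were more often higher than lower in Kdm3 KO heads. Of the 84 members 80 had enough counts to test, and 10 of them rose, 2 fell and 68 did not pass. Over all tested genes 2.15% were called higher and 0.917% lower, and among tested members 12.5% were called higher. An unadjusted p under 0.05 was reached by 2061 of all 14069 tested genes and by 28 of the 80 tested members. Later counts at that level are to be read beside the share over all genes. The members that rose were Cyp309a1, Cyp12d1-p, Cyp6g1, Cyp12c1, Cyp309a2, Cyp28d1, Cyp6a22, Cyp4d1, Cyp4e2 and Cyp12a4, and those that fell were Cyp9f3 and Cyp6t1. The rises ranged from 1.49-fold to 3.25-fold, and 5 of them were at least 2-fold. The median log2 fold change over the 80 tested members was 0.14, beside 0.04 over all tested genes, with 50 members positive and 30 negative, beside 7940 positive and 6129 negative over all tested genes. The 3 libraries of each genotype did not overlap for 21 members that were higher and 4 that were lower in Kdm3 KO, beside 9.35% and 9.33% of all tested genes in those directions.

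**Figure D1:**
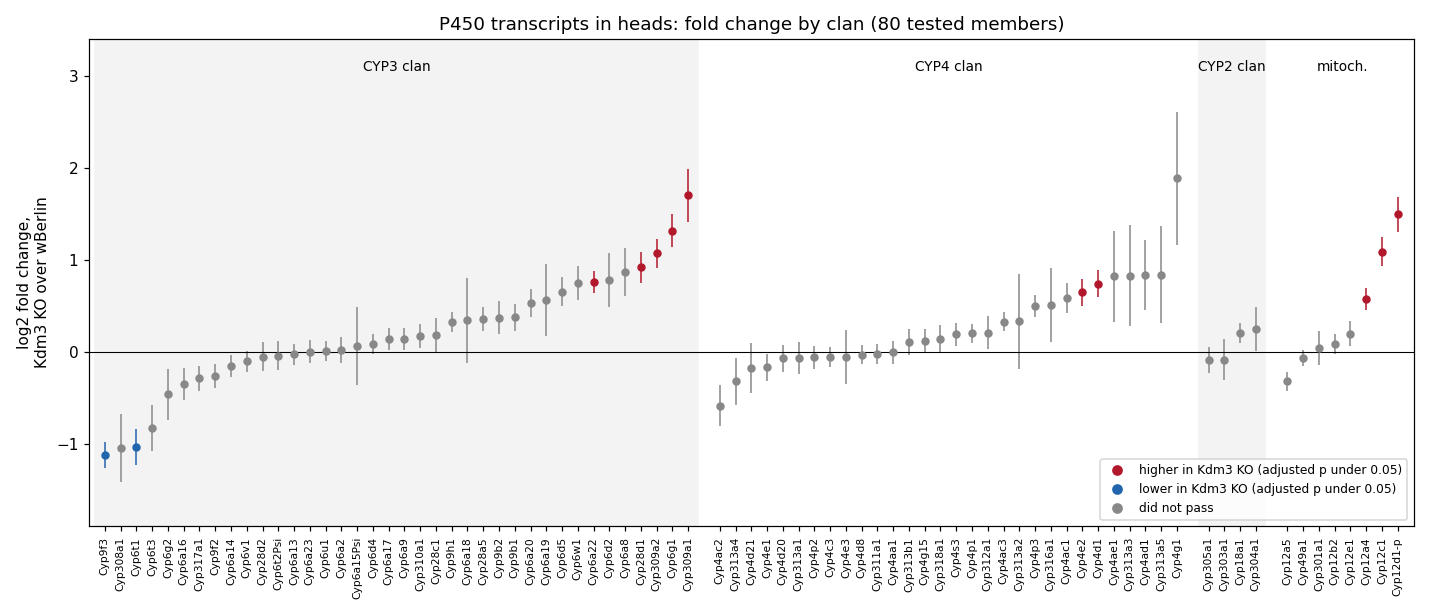
Log2 fold change of each tested P450 member, Kdm3 KO over wBerlin, with its standard error, ordered by size within each clan (80 members, 3 libraries per genotype). Red points are the 10 members called higher in Kdm3 KO and blue points the 2 called lower; most members lie close to 0, and the called ones are in the CYP3, CYP4 and mitochondrial clans.

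Summed over all members, P450 transcripts came to 4098, 3074 and 3952 CPM in Kdm3 KO libraries, against 2780, 3065 and 3073 CPM in wBerlin libraries. Kdm3 KO replicate 2 lay level with the highest wBerlin library, and the other knockout libraries lay well above it. The CYP3 clan summed to 2384, 1727 and 2264 CPM in Kdm3 KO and to 1484, 1541 and 1487 CPM in wBerlin, a ratio of means of 1.41. The corresponding ratio was 1.06 for the CYP4 clan, 1.01 for the CYP2 clan and 1.23 for the mitochondrial clan. The CYP4 clan libraries overlapped, at 1384, 1066 and 1353 CPM in Kdm3 KO and 1029, 1243 and 1323 CPM in wBerlin. Abundant members weigh most in these sums. Per member, the median log2 fold change was 0.14 in the CYP3, 0.16 in the CYP4, 0.06 in the CYP2 and 0.14 in the mitochondrial clan. The difference between clans was not tested.

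Calls at this depth depended on single libraries. Without Kdm3 KO replicate 2, 16 members were called higher and 1 lower, beside 574 and 152 of all genes. Without Kdm3 KO replicate 3, or without wBerlin replicate 2, 6 members were called higher and 1 lower, beside 201 and 66 of all genes in the first setting and 181 and 62 in the second. Without wBerlin replicate 1, 7 members were called higher and 7 lower, beside 268 and 467 of all genes, and without both wBerlin replicate 1 and Kdm3 KO replicate 2, 16 were higher and 5 lower, beside 606 and 476 of all genes. Among the 12 called members, 7 were called in every one of the 15 alternative settings: Cyp9f3, Cyp12d1-p, Cyp6g1, Cyp12c1, Cyp309a1, Cyp309a2 and Cyp6a22. With the replicate number as a block, which called 2.96% of all tested genes higher and 2.57% lower, 14 members were higher and 2 lower, including all 12. DESeq2 called 457 higher and 358 lower of the 16462 genes it fitted, and 16 higher and 4 lower of 82 members. Later DESeq2 counts are to be read beside those totals.

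In the CYP3 clan, which holds most of the detoxification enzymes, 38 of 39 members were tested, 5 rose and 2 fell, with a median log2 fold change of 0.14. With the replicate block, 8 rose. Cyp6g1 on 2R:12185667-12188431 is the P450 whose raised expression gives resistance to DDT and neonicotinoids. It was at 316.3, 196.8 and 286.9 CPM in Kdm3 KO and at 89.5, 121 and 111 CPM in wBerlin. Its libraries did not overlap, and it was 2.48-fold higher in Kdm3 KO (log2 1.31, SE 0.18, adjusted p = 0.00557). In Kdm3 KO Cyp6g1 had the highest level per length of the called members, at 129 CPM per kb of exon in Kdm3 KO and 51.8 CPM per kb in wBerlin, where Cyp28d1 at 58.3 CPM per kb was above it.

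Cyp309a1 and Cyp309a2, a pair that lies head to tail 55 bases apart on 2L:2562483-2573037, rose together. Cyp309a1 was at 48.9, 31.8 and 48.7 CPM in Kdm3 KO and at 14.0, 18.2 and 7.37 CPM in wBerlin, which gave the largest fold of any called member, 3.25 (log2 1.70, SE 0.29, adjusted p = 0.0128). Cyp309a2 was at 21.9, 20.5 and 26.8 CPM in Kdm3 KO and at 11.8, 12.5 and 8.65 CPM in wBerlin (2.09-fold, log2 1.07, SE 0.16, adjusted p = 0.00719). Neither gene's genotypes overlapped, and wBerlin replicate 3 was the lowest library for both.

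Cyp28d1 on 2L:5210460-5212445, a P450 linked to nicotine tolerance, was at 195, 138 and 201 CPM in Kdm3 KO and at 103, 103 and 76.3 CPM in wBerlin. It was 1.89-fold higher (log2 0.91, SE 0.17, adjusted p = 0.0182), without overlap. That call was lost without Kdm3 KO replicate 3 (adjusted p = 0.0570) and without wBerlin replicate 2 (adjusted p = 0.0506), while the log2 fold change stayed at 0.83 and 0.94. Cyp6a22 on 2R:14871366-14873705 was at 28.9, 23.2 and 25.6 CPM in Kdm3 KO and at 15.4, 16.8 and 13.9 CPM in wBerlin (1.68-fold, log2 0.75, SE 0.12, adjusted p = 0.00943).

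Cyp9f3 and Cyp6t1 fell, and both are low-abundance members. Cyp9f3 on 3R:12396007-12398929 was at 6.76, 5.96 and 5.19 CPM in Kdm3 KO and at 13.5, 11.5 and 14.1 CPM in wBerlin. It was 2.18-fold lower in Kdm3 KO (log2 -1.12, SE 0.14, adjusted p = 0.00353), the smallest adjusted p of all members, and it lies 2.88 Mb from Kdm3 on the same arm. Cyp6t1 on X:21517434-21519218 was at 8.07, 6.05 and 5.46 CPM in Kdm3 KO and at 14.4, 15.7 and 10.1 CPM in wBerlin (2.06-fold lower, log2 -1.04, SE 0.20, adjusted p = 0.0222). The Cyp6t1 call was lost without Kdm3 KO replicate 2 (adjusted p = 0.0637), without Kdm3 KO replicate 3 (0.0884) and without wBerlin replicate 2 (0.103).

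In the mitochondrial clan, 8 of 9 members were tested, 3 rose and none fell, with a median log2 fold change of 0.14; 4 had an unadjusted p under 0.05, and DESeq2 called the same numbers. All 3 belong to the Cyp12 family. Cyp12d1-p on 2R:11117225-11121884, a P450 induced by plant compounds and drugs, was at 5.29, 5.78 and 4.62 CPM in Kdm3 KO and at 1.80, 1.97 and 1.78 CPM in wBerlin (2.82-fold, log2 1.49, SE 0.19, adjusted p = 0.00413). Its near-identical neighbour Cyp12d1-d had no count in any library. How reads that match both copies were counted is not known here, so neither value can be assigned to 1 copy.

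Cyp12c1 on 3L:18684259-18686319 was at 24.5, 19.4 and 25.4 CPM in Kdm3 KO and at 10.5, 13.1 and 9.02 CPM in wBerlin (2.12-fold, log2 1.09, SE 0.16, adjusted p = 0.00713). Cyp12a4 on 3R:19135158-19137136, whose raised expression gives resistance to the insecticide lufenuron, was at 95.6, 76.5 and 101 CPM in Kdm3 KO and at 59.3, 65.7 and 59.0 CPM in wBerlin (1.49-fold, log2 0.57, SE 0.12, adjusted p = 0.0318). Neither gene's genotypes overlapped. The Cyp12a4 call was kept in only 1 of the 6 settings that leave out a library, the one without Kdm3 KO replicate 2, and its adjusted p in the others reached 0.0992. Cyp12a4 lies 9.61 Mb from Kdm3. Cyp12a5, 453 bases from Cyp12a4, was at 17.8, 16.5 and 17.9 CPM in Kdm3 KO and at 19.5, 23.2 and 22.6 CPM in wBerlin (log2 -0.32, SE 0.11, adjusted p = 0.164), and Cyp12a5 was called lower without wBerlin replicate 1 (adjusted p = 0.0332). The other tested members of the clan did not pass: Cyp12b2, Cyp12e1 and Cyp49a1 had log2 fold changes of 0.08, 0.19 and -0.07, and Cyp301a1, needed for the adult cuticle, had 0.04; the signs of Cyp12b2 and Cyp301a1 changed without wBerlin replicate 1.

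**Figure D2:**
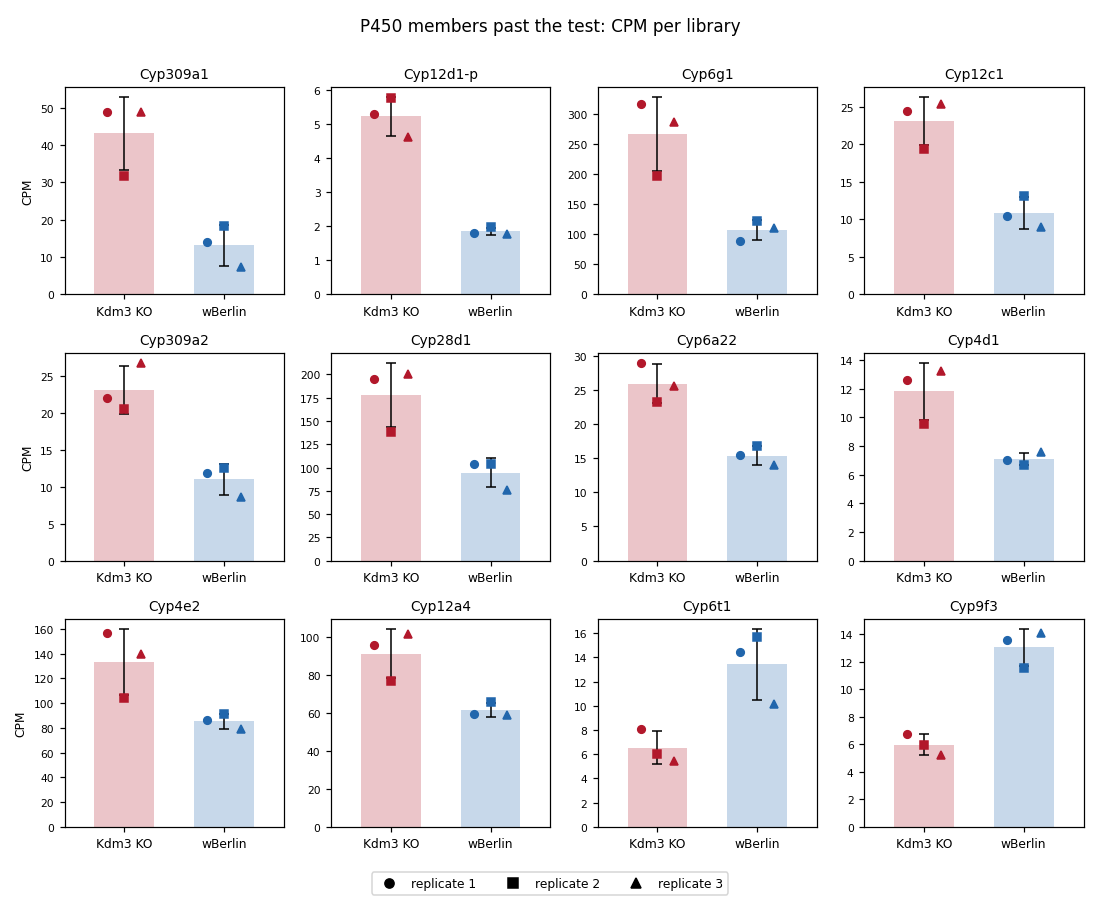
CPM of the 12 called P450 members in each library, Kdm3 KO on the left of each panel and wBerlin on the right (bars, mean; lines, SD; n = 3; symbols mark the replicate number). The libraries of the genotypes do not overlap in any panel, and among the 10 members that rose, Kdm3 KO replicate 2 (square) is the lowest knockout library in 9 and wBerlin replicate 2 the highest control library in 9.

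In the CYP4 clan, 30 of 32 members were tested, 2 rose and none fell, with a median log2 fold change of 0.16. An unadjusted p under 0.05 was reached by 7. DESeq2 called 4 higher and none lower, beside 457 and 358 of the 16462 genes it fitted. Cyp4e2 on 2R:8444560-8447164 was at 156, 104 and 139 CPM in Kdm3 KO and at 86.5, 90.9 and 78.6 CPM in wBerlin (1.56-fold, log2 0.64, SE 0.14, adjusted p = 0.0457). Cyp4d1 on X:2159145-2162180 was at 12.6, 9.54 and 13.3 CPM in Kdm3 KO and at 7.04, 6.68 and 7.55 CPM in wBerlin (1.67-fold, log2 0.74, SE 0.15, adjusted p = 0.0270). Their libraries did not overlap, but both calls were lost in 5 of the 6 settings that leave out a library and held without Kdm3 KO replicate 2. The highest adjusted p among those settings was 0.126 for Cyp4e2 and 0.116 for Cyp4d1. In the CYP2 clan none of the 4 members passed, none had an unadjusted p under 0.05, and the replicate block and DESeq2 called none either.

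A further 16 members had an unadjusted p under 0.05 without passing the adjustment, 12 of them higher and 4 lower in Kdm3 KO. With the called members this made 28 of 80, beside 2061 of 14069 over all tested genes. Of the 16, 4 were called with the replicate block, all higher. Cyp6d5, the most abundant member per length over all libraries together, was at 616, 402 and 509 CPM in Kdm3 KO and at 361, 327 and 284 CPM in wBerlin (log2 0.65, SE 0.16, adjusted p = 0.0678, and 0.0231 with the block). Cyp6w1, which lowers DDT sensitivity when overexpressed, was at 194, 146 and 242 CPM in Kdm3 KO and at 94.9, 118 and 134 CPM in wBerlin (log2 0.75, SE 0.18, adjusted p = 0.0675, and 0.0147 with the block). For both genes every knockout library was above every control library, and without Kdm3 KO replicate 2 both were called higher (adjusted p = 0.0144 for Cyp6d5 and 0.0190 for Cyp6w1).

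Cyp6a20, a P450 known for its effect on male aggression, was at 99.6, 84.8 and 108 CPM in Kdm3 KO and at 53.7, 67.4 and 81.7 CPM in wBerlin (log2 0.53, SE 0.15, adjusted p = 0.115, and 0.0308 with the block). Cyp4p3 was at 30.7, 23.8 and 29.9 CPM in Kdm3 KO and at 21.5, 19.3 and 19.1 CPM in wBerlin (log2 0.49, SE 0.12, adjusted p = 0.0640, and 0.0275 with the block). These genotypes did not overlap either, although for Cyp6a20 the lowest knockout and the highest control library lay close together. The other 8 with higher values were Cyp4ac1, Cyp6a8, Cyp4ac3, Cyp9h1, Cyp28a5, Cyp6d2, Cyp4g1 and Cyp9b1. Cyp6a8, an inducible member that hydroxylates lauric acid, was at 23.1, 15.9 and 21.1 CPM in Kdm3 KO and at 6.64, 11.2 and 15.3 CPM in wBerlin (log2 0.86, SE 0.26, adjusted p = 0.133). Cyp4g1 is described with the single-library patterns, and the remaining log2 fold changes were 0.58 for Cyp4ac1, 0.33 for Cyp4ac3, 0.32 for Cyp9h1, 0.35 for Cyp28a5, 0.77 for Cyp6d2 and 0.37 for Cyp9b1. Without Kdm3 KO replicate 2, Cyp4p3, Cyp28a5, Cyp4ac1 and Cyp9b1 were called higher, with adjusted p of 0.0115, 0.0190, 0.0404 and 0.0432.

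Other members known for roles in toxin metabolism lay near 0. Cyp6a2, overproduced in some insecticide-resistant strains, was at 7.91, 9.26 and 7.54 CPM in Kdm3 KO and at 7.36, 9.27 and 7.78 CPM in wBerlin, with a log2 fold change of 0.02 (SE 0.14) that turned negative without wBerlin replicate 1 or 3, without Kdm3 KO replicate 2 and when no genes were filtered. Cyp6a17, which affects temperature preference and pyrethroid sensitivity, was at 136, 103 and 127 CPM in Kdm3 KO and at 107, 104 and 122 CPM in wBerlin (log2 0.14, SE 0.12). Among less studied members, Cyp310a1 had a log2 fold change of 0.17, Cyp312a1 of 0.21, Cyp304a1 of 0.25 and Cyp6u1 of 0.01, and the sign of Cyp6u1 changed with the normalization and with the library left out.

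Markers of fat body differed between the genotypes too. Of 14 tested fat body markers 5 rose, 1 fell and 8 did not pass, 5 were negative, and the 16 listed summed to 4917, 3905 and 5326 CPM in Kdm3 KO and to 4006, 3964 and 2762 CPM in wBerlin. Apoltp, a lipid transfer protein of fat body, rose (1166, 1008 and 1237 CPM in Kdm3 KO, 758, 717 and 630 CPM in wBerlin), and Pepck2 rose (176, 162 and 239 CPM in Kdm3 KO, 56.5, 71.5 and 61.1 CPM in wBerlin). The gene that fell, to, was at 27.1, 18.02 and 18.02 CPM in Kdm3 KO and at 39.0, 37.4 and 32.8 CPM in wBerlin, and Lsp1beta, a larval serum protein, had a log2 fold change of -0.49 (adjusted p = 0.488). The other markers that rose were Fbp2, Lsp1gamma and fit, with log2 fold changes of 2.15, 1.75 and 1.86. The fat body sums overlapped between genotypes. FASN1, which did not pass, was the largest part of them, at 2683, 1987 and 2723 CPM in Kdm3 KO and 2396, 2325 and 1500 CPM in wBerlin. Pepck1 had no count in any library. The defining gene apolpp had none either, but it lies on chromosome 4, where all 111 listed genes are at 0 in every library, so its 0 says nothing about fat body. Yolk protein and female-enriched markers, which head fat body also makes in females, summed to 17478 to 22547 CPM in Kdm3 KO and 7533 to 12467 CPM in wBerlin. Of 5 tested, 2 were called higher and none lower, and 4 had an unadjusted p under 0.05. Of 14 tested gut markers 2 rose and none fell, the mannosidases LManI and LManII, and the 20 listed summed to 608 to 700 CPM in Kdm3 KO and 282 to 364 CPM in wBerlin, most of it LManII. Malpighian tubule markers summed to 507 to 635 CPM in Kdm3 KO and 586 to 624 CPM in wBerlin, and none of 10 was called, with 1 at an unadjusted p under 0.05. Glial markers summed to 3439 to 4181 CPM in Kdm3 KO and 3387 to 3730 CPM in wBerlin, with none of 10 called and 2 at an unadjusted p under 0.05, and alrm, an astrocyte gene, was called higher with the replicate block (log2 0.49, adjusted p = 0.0781, and 0.0233 with the block). Muscle markers summed to 20429 to 30404 CPM in Kdm3 KO and 25971 to 45858 CPM in wBerlin. Of 16 tested, 12 were negative and 10 had an unadjusted p under 0.05. Their median log2 fold change was -0.51, and Act87E alone was called lower. The male list of roX1, roX2 and to summed to 1425 to 1833 CPM in Kdm3 KO and 1168 to 1196 CPM in wBerlin. The log2 fold changes were 0.42 for roX1 and 0.59 for roX2, neither of which passed. All 3 genes of the list had an unadjusted p under 0.05. How far any of these moved the P450 values was not tested.

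Many P450 genes lie in tandem groups, and most called members stood beside neighbours that did not pass. Taking members within 20000 bases of each other, 48 of the 84 fell in 17 groups and 36 stood alone, and 10 of the 12 called members lay in 9 of the groups. The Cyp309a pair was the only neighbouring pair with both members called. The ratio of the neighbours' counts did not overlap between genotypes in 12 of the 27 neighbouring pairs of tested members. The share over neighbouring pairs of other genes was not computed, so the count has no background and nothing is read from it. In 7 pairs exactly 1 member was called, and 6 of those are among the 12; since the 7 were picked by the call of 1 member, nothing is read from that share. An exact two-sided permutation test of 3 against 3 libraries cannot go below p = 0.1, so no pair could pass, and after adjustment over the 27 pairs the lowest p was 0.225.

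The Cyp6g1 group on 2R had the widest contrast. There were 128, 48.2 and 144 Cyp6g1 counts for each Cyp6g2 count in Kdm3 KO, against 25.7, 31.4 and 25.0 in wBerlin. Cyp6g2, the adjacent paralogue, was at 2.46, 4.08 and 2.00 CPM in Kdm3 KO and at 3.48, 3.87 and 4.44 CPM in wBerlin (log2 -0.46, SE 0.27, adjusted p = 0.512). Their exons overlap by 94 bases on opposite strands, and whether counting used strand is not known here. The ratio of Cyp12a5 to Cyp12a4 counts was 0.186, 0.215 and 0.176 in Kdm3 KO and 0.330, 0.354 and 0.382 in wBerlin. Cyp28d2, 1114 bases from Cyp28d1, was at 5.37, 5.14 and 4.75 CPM in Kdm3 KO and at 5.10, 4.71 and 6.09 CPM in wBerlin (log2 -0.06, SE 0.16), so that only 1 gene of that pair passed the test. Cyp9f2, 4410 bases from Cyp9f3, was at 137, 94.7 and 119 CPM in Kdm3 KO and at 141, 136 and 145 CPM in wBerlin (log2 -0.26, SE 0.13, adjusted p = 0.401).

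The largest group, on 2R:14871366-14903095, holds 8 members, and of these Cyp6a22 alone was called. From that gene along the arm, the log2 fold changes of its neighbours Cyp6a17, Cyp6a23, Cyp6a19, Cyp6a9, Cyp6a20, Cyp6a8 and Cyp317a1 were 0.14, -0.00041, 0.56, 0.14, 0.53, 0.86 and -0.29. Cyp6a22 had 0.212, 0.225 and 0.201 counts for each Cyp6a17 count in Kdm3 KO, against 0.144, 0.160 and 0.114 in wBerlin. Across the whole CYP6A subfamily 1 of 13 members was called. The CYP6A genes are close paralogues, and reads that match several of them could be split or dropped by the counting.

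**Figure D3:**
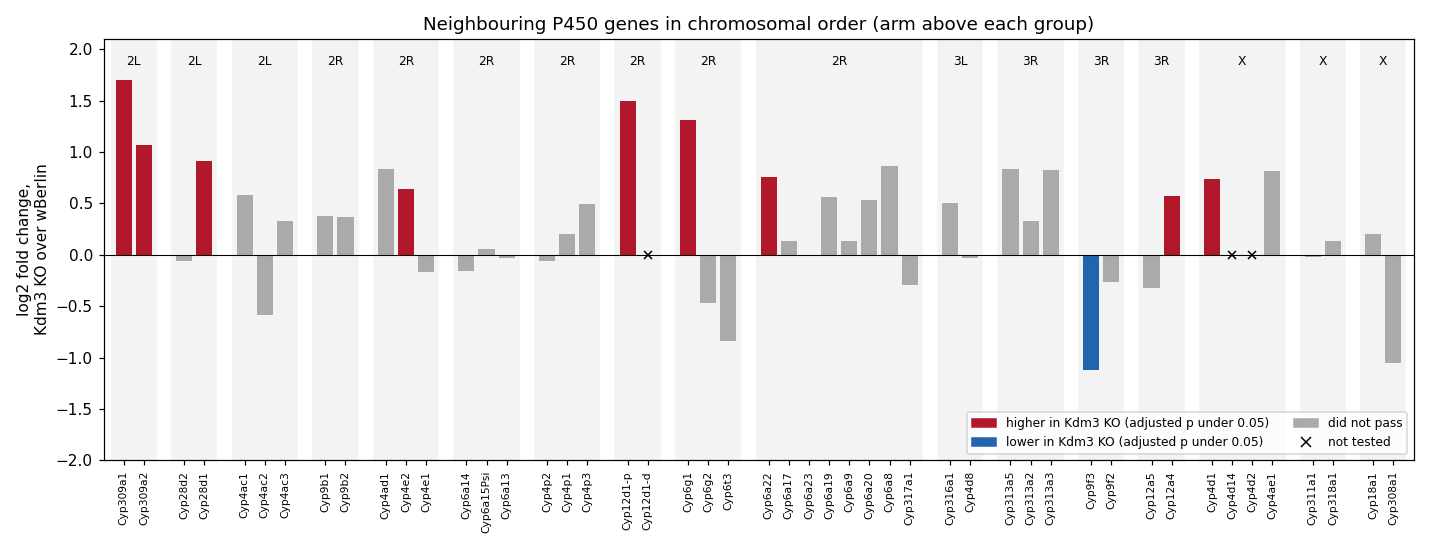
Log2 fold change of P450 genes that lie within 20000 bases of another member, in chromosomal order, with the chromosome arm above each group (Kdm3 KO over wBerlin; crosses mark members with too few counts to test). Called genes mostly stand beside uncalled ones; the Cyp309a pair at the left is the only neighbouring pair with both called.

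Several members differed more within a genotype than between genotypes. Of 74 members with a mean of at least 2 CPM in either genotype, 12 differed by more than 2-fold between libraries of the same genotype. The share over all genes was not computed, so the count has no background and nothing is read from it. The 12 include the called Cyp309a1, which differed 2.48-fold within wBerlin and 3.25-fold between genotypes. Cyp4g1, the oxidative decarbonylase of the oenocytes that makes cuticular hydrocarbons, was at 5.65, 42.2 and 5.68 CPM in Kdm3 KO and at 5.14, 6.24 and 2.97 CPM in wBerlin. The single high library, Kdm3 KO replicate 2, gave a log2 fold change of 1.88 (SE 0.72, adjusted p = 0.249), and without that library the value was 0.24. Cyp4ad1 had the same high library, at 2.15, 4.68 and 1.69 CPM in Kdm3 KO and at 1.58, 1.53 and 1.65 CPM in wBerlin, as did Cyp6a18, at 1.35, 4.40 and 1.29 CPM in Kdm3 KO and at 1.65, 1.79 and 2.11 CPM in wBerlin. Besides alphaTry and TpnC4, that library was also high in Uro, a tubule enzyme, at 0.398, 7.48 and 0.621 CPM in Kdm3 KO and at 0.754, 0.839 and 0.595 CPM in wBerlin. The summed markers of gut and tubule were not high there. The gut sum, 607.7 CPM, was the lowest of the knockout libraries, and the tubule sum, 506.6 CPM, was the lowest of all 6. Abundant genes set these sums: in that library LManII was at 434.9 CPM and, among tubule markers, Ncc69 at 260.2 CPM. All listed gut markers but LManI, LManII, Jon99Cii, Jon99Ciii and Npc2e were highest there. For example, betaTry was at 0.199, 11.1 and 0.266 CPM in Kdm3 KO and at 0.287, 0.401 and 0.320 CPM in wBerlin. Of the tubule markers, NaPi-T, ZnT35C, Oatp58Db and CG3285 were highest there too, and CapaR, Irk3, Best2, Ncc69 and Alp4 were not.

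Another set shared the order of the antennal markers, with wBerlin replicates 2 and 3 high and wBerlin replicate 1 nearer to the knockout libraries. That order of the control libraries was not particular to antennal genes or to lower values. Muscle markers summed to 25971, 37375 and 45858 CPM in wBerlin. Cyp6a8, Cyp6a20 and Cyp6w1, all with positive log2 fold changes, also increased from wBerlin replicate 1 to 3. For Cyp6t3 and for the summed antennal markers, wBerlin replicate 1 was still above every knockout library. Cyp308a1 was at 1.91, 3.21 and 2.44 CPM in Kdm3 KO and at 2.51, 5.47 and 7.69 CPM in wBerlin (log2 -1.05, SE 0.37, adjusted p = 0.207). Cyp4ac2 was at 15.5, 16.3 and 15.7 CPM in Kdm3 KO and at 15.0, 25.1 and 31.4 CPM in wBerlin (log2 -0.59, SE 0.22, adjusted p = 0.239). Cyp6t3 was at 3.10, 3.85 and 3.46 CPM in Kdm3 KO and at 4.02, 6.31 and 8.28 CPM in wBerlin (log2 -0.83, SE 0.25, adjusted p = 0.132). All 3 were called lower when wBerlin replicate 1 was left out, together with Cyp12a5, Cyp317a1, Cyp6t1 and Cyp9f3. Of the antennal markers 6 of 10 tested fell; Obp83a, an odorant-binding protein, was at 0.914, 1.74 and 1.02 CPM in Kdm3 KO and at 7.76, 64.6 and 99.9 CPM in wBerlin.

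Cyp4d21, a P450 enriched in male heads and tied to male mating, was at 163, 97.0 and 159 CPM in Kdm3 KO and at 96.0, 185 and 193 CPM in wBerlin. Its genotypes overlapped fully, and its log2 fold change of -0.18 (SE 0.27) turned to 0.03 without Kdm3 KO replicate 2. Cyp313a1, the second most abundant member per length over all libraries together, was at 378, 272 and 389 CPM in Kdm3 KO and at 283, 406 and 402 CPM in wBerlin (log2 -0.07, SE 0.18), also with a change of sign, to 0.08, without Kdm3 KO replicate 2. Cyp4e3 was at 87.0, 60.3 and 88.7 CPM in Kdm3 KO and at 59.8, 57.4 and 129 CPM in wBerlin, where replicate 3 alone was high.

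**Figure D4:**
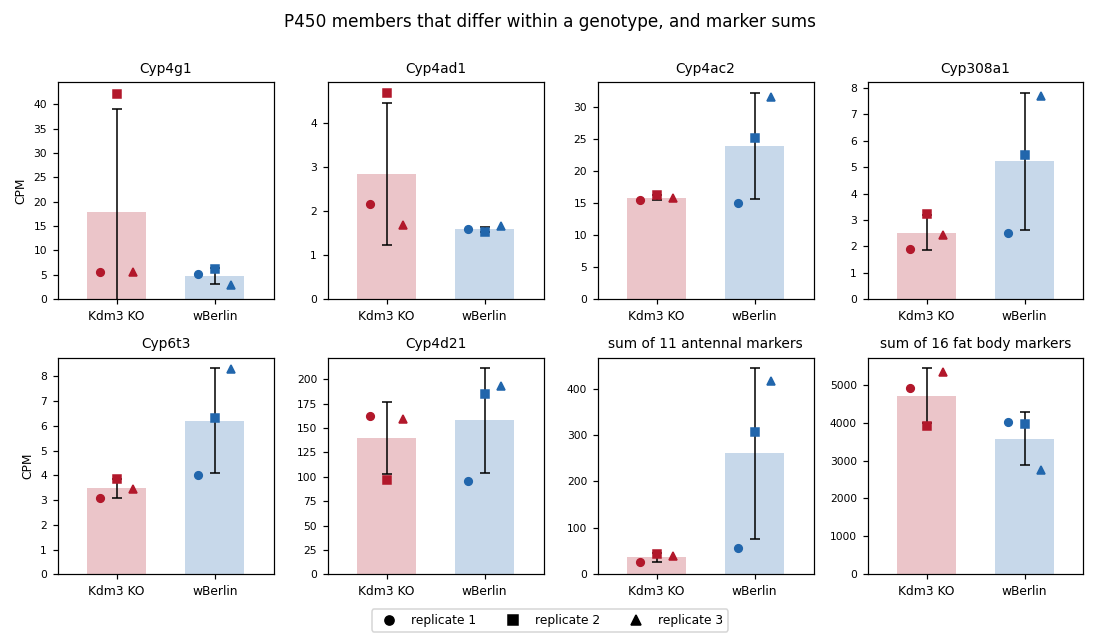
CPM per library of 6 P450 members that vary within a genotype, and summed CPM of the antennal and fat body markers, Kdm3 KO on the left and wBerlin on the right (bars, mean; lines, SD; n = 3; symbols mark the replicate number). Cyp4g1 and Cyp4ad1 are high in Kdm3 KO replicate 2 alone, and Cyp4ac2, Cyp308a1 and Cyp6t3 are low in wBerlin replicate 1, as are the antennal markers.

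The steroid hormone ecdysone is made by P450 enzymes, and none of the 10 tested genes of ecdysteroid synthesis and removal passed the test in either direction. DESeq2 called Cyp6t3 lower, 1 of the 10 had an unadjusted p under 0.05, and the median log2 fold change of the list was 0.02. Cyp18a1, the hydroxylase that inactivates ecdysteroids, was at 31.1, 27.2 and 29.1 CPM in Kdm3 KO and at 28.3, 25.0 and 22.7 CPM in wBerlin (log2 0.20, SE 0.11, adjusted p = 0.471). The shd gene, for the enzyme that converts ecdysone to its active form, was at 4.69, 7.80 and 5.95 CPM in Kdm3 KO and at 5.28, 6.13 and 5.08 CPM in wBerlin. The spo, phtm, dib and sad genes, for earlier steps, were between 0.399 and 3.94 CPM in every library, a depth at which a small difference was not detectable. Cyp6t3, described above with the antennal set, acts in the prothoracic gland of larvae.

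Of 13 tested genes of ecdysone reception and response, none rose and 1 fell, while DESeq2 called 1 higher and 1 lower. That gene was Hr38, a nuclear receptor that can pair with the receptor partner usp and is also induced by neuronal activity. Hr38 was at 47.0, 37.9 and 35.9 CPM in Kdm3 KO and at 72.8, 66.5 and 64.4 CPM in wBerlin, without overlap (log2 -0.75, SE 0.12, adjusted p = 0.00867). The receptor gene EcR was at 161, 164 and 174 CPM in Kdm3 KO and at 181, 182 and 183 CPM in wBerlin (log2 -0.13, SE 0.09, adjusted p = 0.573). MsrA, also known as an ecdysone-induced gene, had a log2 fold change of 0.42 (adjusted p = 0.0643, and 0.0395 with the replicate block).

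Of 11 tested juvenile hormone genes none passed in either direction, with 3 at an unadjusted p under 0.05, and DESeq2 called Jhedup and Jheh1. Jhedup, a copy of the juvenile hormone esterase gene, was at 5.49, 8.90 and 13.6 CPM in Kdm3 KO and at 11.6, 91.5 and 107 CPM in wBerlin (log2 -2.91, SE 0.68, adjusted p = 0.0538, and 0.00309 with the block). For Jhedup, wBerlin replicate 1 was level with the knockout libraries, and without that library Jhedup was called lower (adjusted p = 0.00122). Jheh1, an epoxide hydrolase that clears juvenile hormone, was at 142, 90.3 and 119 CPM in Kdm3 KO and at 81.6, 88.4 and 85.7 CPM in wBerlin (log2 0.46, SE 0.15, adjusted p = 0.159), and was called higher without Kdm3 KO replicate 2 (adjusted p = 0.0117).

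Of 14 tested genes of cuticular hydrocarbon synthesis 2 rose and none fell, with a median log2 fold change of 0.16. Desat1, the desaturase that places the double bond of the main unsaturated hydrocarbons, was at 1885, 1320 and 1945 CPM in Kdm3 KO and at 780, 840 and 548 CPM in wBerlin (log2 1.25, SE 0.20, adjusted p = 0.0101). FASN2, a fatty acid synthase of oenocytes, was at 47.4, 62.2 and 65.1 CPM in Kdm3 KO and at 23.3, 34.3 and 22.3 CPM in wBerlin (log2 1.13, SE 0.18, adjusted p = 0.0101). Both had no overlap between genotypes, and the FASN2 call was lost when both wBerlin replicate 1 and Kdm3 KO replicate 2 were left out (adjusted p = 0.0582). Cyp4g1, the P450 of that pathway, did not pass, as given above. Its paralogue Cyp4g15, which is expressed in the nervous system, was at 108, 76.1 and 96.6 CPM in Kdm3 KO and at 95.8, 82.5 and 80.8 CPM in wBerlin (log2 0.12, SE 0.13).

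Among the electron donors, Cpr did not pass. Cpr, the reductase that serves the P450 enzymes of the endoplasmic reticulum, was at 262, 219 and 275 CPM in Kdm3 KO and at 241, 276 and 260 CPM in wBerlin (log2 -0.04, SE 0.11, adjusted p = 0.913). Of 7 tested genes of this list 1 rose and none fell. It was Cyt-b5-r, at 643, 450 and 707 CPM in Kdm3 KO and at 241, 296 and 173 CPM in wBerlin (log2 1.34, SE 0.22, adjusted p = 0.0104). Despite its symbol, Cyt-b5-r encodes a cytochrome b5-related protein with a fatty acid desaturase domain, and it is not known as a P450 reductase. The ferredoxins Fdx1 and Fdx2 and their reductase dare, which serve the mitochondrial clan, had log2 fold changes of 0.20, 0.33 and 0.16 and did not pass.

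None of 10 tested regulators of detoxification genes passed in either direction, with 3 at an unadjusted p under 0.05. The transcription factor cnc, which drives P450 and glutathione transferase genes, was at 424, 391 and 480 CPM in Kdm3 KO and at 436, 425 and 421 CPM in wBerlin (log2 0.02, SE 0.11). Its partner maf-S was at 56.7, 48.1 and 56.8 CPM in Kdm3 KO and at 42.8, 39.1 and 37.1 CPM in wBerlin, without overlap (log2 0.44, SE 0.10, adjusted p = 0.0540, and 0.0331 with the block), and DESeq2 also called it higher. Without wBerlin replicate 1, maf-S was called higher (adjusted p = 0.0364) and ss, the fly homologue of the aryl hydrocarbon receptor, lower (adjusted p = 0.00521). With all libraries ss did not pass (log2 -0.88, SE 0.32, adjusted p = 0.219). It was at 8.87, 11.7 and 9.32 CPM in Kdm3 KO and at 8.73, 21.5 and 25.1 CPM in wBerlin. The omitted control library thus lay below every knockout library. Of the 15 alternatives, 2 called ss, both without wBerlin replicate 1. The nuclear receptor Hr96, which responds to xenobiotics, was at 33.0, 32.1 and 35.5 CPM in Kdm3 KO and at 32.0, 32.6 and 30.5 CPM in wBerlin. Of 9 tested genes of haem synthesis and breakdown none passed, with 1 at an unadjusted p under 0.05. That gene was Ho, the haem oxygenase, with a log2 fold change of 0.60 (SE 0.19, adjusted p = 0.150, and 0.0255 with the block), and DESeq2 also called it higher.

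**Figure D5:**
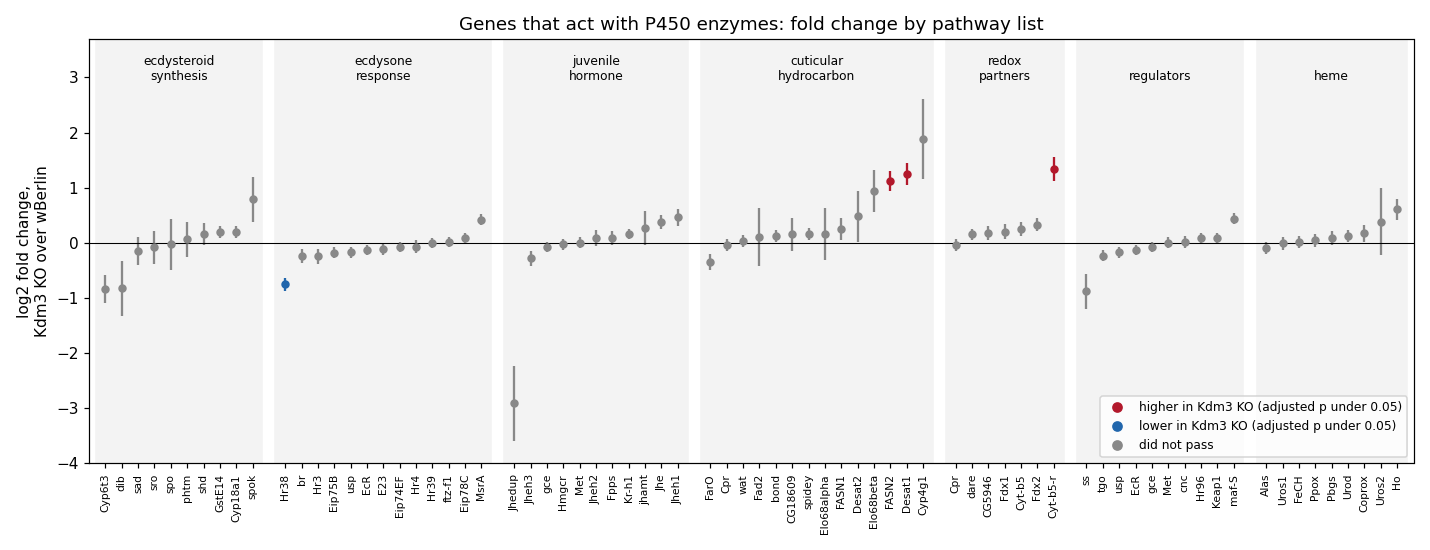
Log2 fold change with standard error of tested genes that make hormones and hydrocarbons, supply electrons or haem to P450 enzymes, or regulate them (Kdm3 KO over wBerlin, 3 libraries per genotype). Desat1, FASN2 and Cyt-b5-r are the genes called higher and Hr38 the gene called lower; Jhedup lies lowest and did not pass.

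Levels differed widely between members. Scaled to exon length, the 80 tested members had a median of 8.97 CPM per kb over all libraries, 11 were over 50 CPM per kb and 7 under 1 CPM per kb, and the 10 highest held 59.1% of the summed level. In order over all libraries together these were Cyp6d5 (254 CPM per kb), Cyp313a1 (219), Cyp6g1 (90.2), Cyp28d1 (84.2), Cyp4d21 (81.7), Cyp28a5 (77.4), Cyp4p1 (74.0), Cyp9f2 (73.3), Cyp6a17 (67.5) and Cyp6w1 (64.7). The order differed between genotypes: Cyp6d5 was at 310.4 and Cyp313a1 at 213 CPM per kb in Kdm3 KO, while in wBerlin Cyp313a1, at 224, was above Cyp6d5, at 197, followed by Cyp4d21 at 86.7 and Cyp9f2 at 79.97 CPM per kb. The called members were not the abundant ones as a class, since 4 of them were among the 20 highest and their median level was 9.38 CPM per kb, beside 8.78 CPM per kb for members that did not pass. In the CYP2 clan, whose named roles are hormonal or cuticular, Cyp305a1 was highest at 26.5 CPM per kb (log2 fold change -0.09), and Cyp303a1, needed for sensory bristles, was at 1.5 CPM per kb (log2 fold change -0.09).

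The 4 untested members were Cyp12d1-d, Cyp4d14, Cyp4d2 and Cyp9c1. Cyp4d14 had no count in any library, Cyp4d2 was at 0 to 0.0915 CPM and Cyp9c1 at 0 to 0.108 CPM. Antisense RNA genes overlap 96.2% of the Cyp4d14 exons, 98.7% of those of Cyp4d2 and 98.2% of those of Cyp9c1, and without the strand setting reads from a gene and its antisense partner cannot be told apart. The same applies to Cyp4ae1, with 88.3% of its exons overlapped and 0.320 to 0.932 CPM per library. Cyp6d2, Cyp303a1 and Cyp317a1 share 51.0%, 33.0% and 32.6% of their exons with a protein-coding gene on the opposite strand.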

How the data were processed

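The authors deposited raw read counts per gene for 6 libraries, and per the submitters' processing notes STAR, SAMtools, HTSeq, DESeq2 and the build BDGP6 were used; no source used here gives their versions, settings or use of strand. Ribosomal RNA was depleted before library construction, per the labels' protocols. Symbols, exon lengths and 1-based coordinates came from the Ensembl annotation of BDGP6.54, matched by FlyBase ID for 17626 of 17753 genes. From the deposited counts, edgeR 4.0.16 in R 4.3.3 was run with TMM, filterByExpr by genotype and the quasi-likelihood test, genotype as the only term; 14069 genes were tested, and the biological coefficient of variation was 18.2%. Chi-square values between libraries of one genotype were 16.8 to 65.8 times their degrees of freedom, well above sampling noise. CPM of 3 counts was 0.108 to 0.138.

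Kdm3 KO and wBerlin libraries share replicate numbers in the labels. Over 8566 genes whose mean reached 5 CPM, deviations of same-numbered libraries from their genotype means correlated at 0.461, 0.116 and 0.150 for numbers 1, 2 and 3. All were over 0.1, the threshold set for pairing, although Kdm3 KO replicate 2 correlated at 0.195 with wBerlin replicate 3. The labels do not mark the numbers as a batch. The main test therefore left them out, and the replicate block was run as an alternative. The 15 alternatives were DESeq2 1.42.0, voom of limma 3.58.1, other normalizations, other filters, the replicate block and the omission of libraries.

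Named genes were Kdm3, every called member, the 4 most abundant members per length of each clan, a list of members with known roles, members with an unadjusted p under 0.05, and the called or lowest-p genes of 7 pathway lists; further genes, among them neighbours of called members, other pathway genes and markers, were named after their values were seen. The members, lists and tests were chosen with earlier results of these data known.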

Additional observations from a re-analysis of the deposited data

How the results depend on the processing

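Over the named genes and the 15 alternatives, direction and side of the threshold were kept in 716 comparisons; in 61 a gene became called, in 23 a call was lost and in 25 the sign changed. The uncalled maf-S was called in 9 of the 15, the sign of Cyp6u1 changed in 8, and 7 of the 12 called members were called in all. DESeq2 called 457 genes higher and 358 lower in Kdm3 KO, with 16 and 4 P450 members, 9 and 4 in the CYP3 clan, 4 higher in the CYP4 clan, and 7 and 3 over the 7 pathway lists. The replicate block called 362 genes lower, 8 CYP3 clan members higher, and 6 higher and 2 lower over the pathway lists, and added Cyp4p3, Cyp6a20, Cyp6d5 and Cyp6w1 to the P450 calls without losing any. Without a filter 266 genes were lower and the median P450 log2 fold change was 0.077; with upper quartile scaling 212 were lower and 5 pathway genes higher; with total counts 6 pathway genes were higher and the median was 0.155; with a 1 CPM filter 5 pathway genes were higher; voom called 1 CYP4 clan member. The median over all tested genes moved too. It was -0.0037 without a filter and 0.056 with total counts, beside 0.036 in the main test. With libraries left out it ran from -0.012 to 0.047. The cause of these moves was not tested.

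Leaving out libraries gave 181 to 606 genes higher and 62 to 476 lower; 6 to 16 P450 members higher and 1 to 7 lower; 4 to 10 CYP3 clan members higher and 1 to 5 lower; 0 to 4 CYP4 clan members higher and 0 to 1 lower; 2 to 3 mitochondrial clan members higher and 0 to 1 lower; 3 to 9 pathway genes higher and 1 to 5 lower; and a median of 0.066 to 0.166.

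Among the named genes those that changed sign were all uncalled. Cyp6u1 was at -0.0064 with DESeq2, -0.053 with no filter, -0.000081 with the block and -0.00086 with upper quartile scaling; with no filter Cyp301a1 was at -0.015 and Cyp6a2 at -0.040. Over the settings that leave out libraries the log2 fold change ran from -0.0042 to 0.17 for Cyp12b2, -0.15 to 0.21 for Cyp301a1, -0.43 to 0.058 for Cyp303a1, -0.23 to 0.077 for Cyp305a1, -0.043 to 0.32 for Cyp312a1, -0.28 to 0.081 for Cyp313a1, -0.50 to 0.031 for Cyp4d21, -0.14 to 0.083 for Cyp6a2 and -0.075 to 0.083 for Cyp6u1.

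With 3 libraries per genotype and some tested members below 1 CPM, a small difference could not be detected, and the genotype cannot be told apart from any other difference between the stocks.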
